A study of Homo sapiens with 6 samples.

Results

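Heat shock proteins and chaperones were taken as the protein-coding rows of the gene table whose symbols begin with HSPA, HSPB, HSPD, HSPE, HSPH, HSP90, DNAJA, DNAJB, DNAJC or CCT followed by a number. This rule found 87 of 58735 genes, carrying 86 symbols because HSPA14 is listed under 2 identifiers. The libraries came from PC9-BrM3, a lung adenocarcinoma line derived from PC9 cells through 3 rounds of injection into mice and recovery from brain metastases. In 3 libraries AKR1B10, an aldo-keto reductase, was silenced with an shRNA carried by the lentiviral vector LV2 (BrM3-shAKR1B10, genotype AKR1B10 knockdown), and 3 control libraries carried a negative control shRNA in the same vector (BrM3-shNC, genotype WT in the labels). Both groups were in routine culture with no heat treatment or drug named in the labels. The knockdown rested on 1 shRNA. The groups are called knockdown and control libraries below, and values are given in the order of replicates 1 to 3.

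Molecular chaperones bind unfolded or partly folded proteins and keep them from aggregating. HSP70 proteins bind and release clients in an ATP cycle that J-proteins (DNAJA, DNAJB and DNAJC) start and that HSP110 proteins reset by nucleotide exchange, HSP90 takes over many kinases and steroid receptors late in folding, and small heat shock proteins such as HSPB1 hold clients without ATP. HSP60 with its lid HSP10 folds proteins inside mitochondria, while the ring of CCT subunits folds actin and tubulin in the cytosol. In the cytosol many of these genes are driven by the factor HSF1 through heat shock elements, arrays of inverted GAA units, and in the endoplasmic reticulum (ER) a separate set is driven by the unfolded protein response.

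The promoter stretches that hold such elements are shown for members whose values are described below, because HSF1 and the unfolded protein response are known to act through them. Sequences are RefSeq windows of GRCh38.p14, written 5′ to 3′ along the gene's own strand, and capitals mark the match. The window was cut to 30 bases or fewer where it lay in or beside an annotated exon. The capitals are 3 inverted units (GAA, TTC and GAA, or TTC, GAA and TTC, each pair separated by 2 bases) in HSP90AA1, HSP90AB1, HSPA8 and HSPD1, a pair of units (GAANNTTC) in HSPB1, DNAJA1 and DNAJB1, and the ER stress element (CCAAT and CCACG separated by 9 bases, on either strand) in HSPA5 and HSP90B1.
HSP90AA1, chr14:102087112-102087140, minus strand: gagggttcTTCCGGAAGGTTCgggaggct
HSP90AB1, chr6:44247823-44247851, plus strand: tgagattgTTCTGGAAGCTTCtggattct
HSPA8, chr11:123062171-123062199, minus strand: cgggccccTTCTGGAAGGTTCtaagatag
HSPD1, chr2:197500060-197500088, minus strand: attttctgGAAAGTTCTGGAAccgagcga
HSPB1, chr7:76302461-76302528, plus strand: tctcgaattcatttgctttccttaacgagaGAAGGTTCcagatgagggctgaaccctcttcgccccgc
DNAJA1, chr9:33025064-33025093, plus strand: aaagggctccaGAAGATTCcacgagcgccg
DNAJB1, chr19:14518426-14518455, minus strand: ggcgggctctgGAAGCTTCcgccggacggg
HSPA5, chr9:125241361-125241439, minus strand: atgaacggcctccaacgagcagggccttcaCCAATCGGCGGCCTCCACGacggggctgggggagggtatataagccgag
HSP90B1, chr12:103930316-103930344, plus strand: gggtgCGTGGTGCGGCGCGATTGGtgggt

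Reads on genes numbered 16964504 to 18709028 per library. The library sizes that scaled the deposited values were above these reads in every knockdown library (17669819 against 17253067 in replicate 1). They were below them in every control library (18350584 against 18709028 in replicate 1). Knockdown values are thus lower relative to controls than under scaling to reads on genes. AKR1B10 stood at 108, 107 and 110.2 FPKM (fragments per kilobase of exon, scaled by those library sizes) in BrM3-shAKR1B10 and at 799, 775 and 772 FPKM in controls, that is, a log2 fold change of -2.85 ± 0.0300 (SE, limma adjusted p = 1.6e-07). The epithelial markers EPCAM, KRT8, KRT18, KRT19 and CDH1 lay between 44.8 and 974 FPKM in every library. EPCAM was lower (-0.24, limma adjusted p = 0.00975) and CDH1 higher (0.16, limma adjusted p = 0.00975) in BrM3-shAKR1B10, each with no overlap, and the keratins did not pass. The lung lineage markers NKX2-1, NAPSA, SFTPB and SFTPC did not exceed 0.677 FPKM. The immune markers PTPRC, CD3E and CD68 did not exceed 0.199 FPKM, and the endothelial markers PECAM1 and VWF did not exceed 0.513 FPKM. Too low to be tested, PECAM1 was at 0.292, 0.293 and 0.233 FPKM against 0.513, 0.412 and 0.388 FPKM (32 to 73 reads). CD68 was also lower in every knockdown library, on 0 to 8 reads. Of the fibroblast markers COL1A2 and DCN were listed at 0, while COL1A1 moved with the groups, at 1.15, 1.17 and 1.33 FPKM against 1.98, 2.02 and 1.96 FPKM (log2 fold change -0.67, limma adjusted p = 0.00319). Of the glial and neuronal markers GFAP and RBFOX3 did not exceed 0.144 FPKM, and MBP was at 2.56, 2.48 and 2.64 FPKM against 3.47, 3.35 and 3.41 FPKM (-0.40, limma adjusted p = 0.00225). The part of these markers in the results below was not tested.

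Summed chaperone transcript was lower in the libraries with AKR1B10 silenced, and the lower members were mainly the abundant ones. The 87 members together held 1.24%, 1.28% and 1.24% of the summed FPKM of the BrM3-shAKR1B10 libraries against 1.57%, 1.56% and 1.58% of the BrM3-shNC libraries. The groups did not overlap, and an exact two-sided permutation test gave p = 0.1, the smallest that 3 against 3 libraries allow. In bulk RNA a smaller share of cells with high expression and a lower level in every cell cannot be told apart. The labels do not say whether replicates were separate cultures, so p-values measure the spread between these libraries, which may be technical.

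A gene was tested with limma where its mean level reached 1 FPKM, which left 64 members among 13150 genes, and was called at an adjusted p under 0.05 with a log2 fold change beyond 0.5. Of the 64 members, 5 were called lower (7.81%), beside 7.45% of all tested genes. A further 2 were called higher (3.12%), beside 5.83% of all tested genes. The share of members called in either direction was thus near or under the background. Small shifts were more frequent. At an adjusted p under 0.05 with no limit on fold change, 31 members were lower (48.4%) against 23.1% of all tested genes, and 10 were higher (15.6%) against 19.4%. The FPKM values of the groups did not overlap for 32 lower members (50%; 29.2% of all tested genes) and for 16 higher members (25.0%; 25.5% of all tested genes). The median log2 fold change was -0.16 over the members and -0.01 over all tested genes. With voom on reads recovered from the FPKM values, these medians were -0.11 and 0.04, and 31 members passed as lower and 15 as higher.

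BrM3-shNC replicate 1 stood apart from the other controls: its reads differed from theirs by a chi-square of 4.50 and 4.97 per gene, against 2.35 to 2.57 for the other pairs within a group. It held the highest control value for 40 of the 64 tested members (62.5%, beside 37.4% of all tested genes), HSP90AA1, HSP90AB1, HSPA8 and HSPD1 among them. Without it these genes had log2 fold changes of -0.58, -0.37, -0.28 and -0.19, in place of -0.62, -0.40, -0.31 and -0.23, each still past the adjusted p (limma, 0.0117 or less), and the 7 called members were still called.

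**Figure D1:**
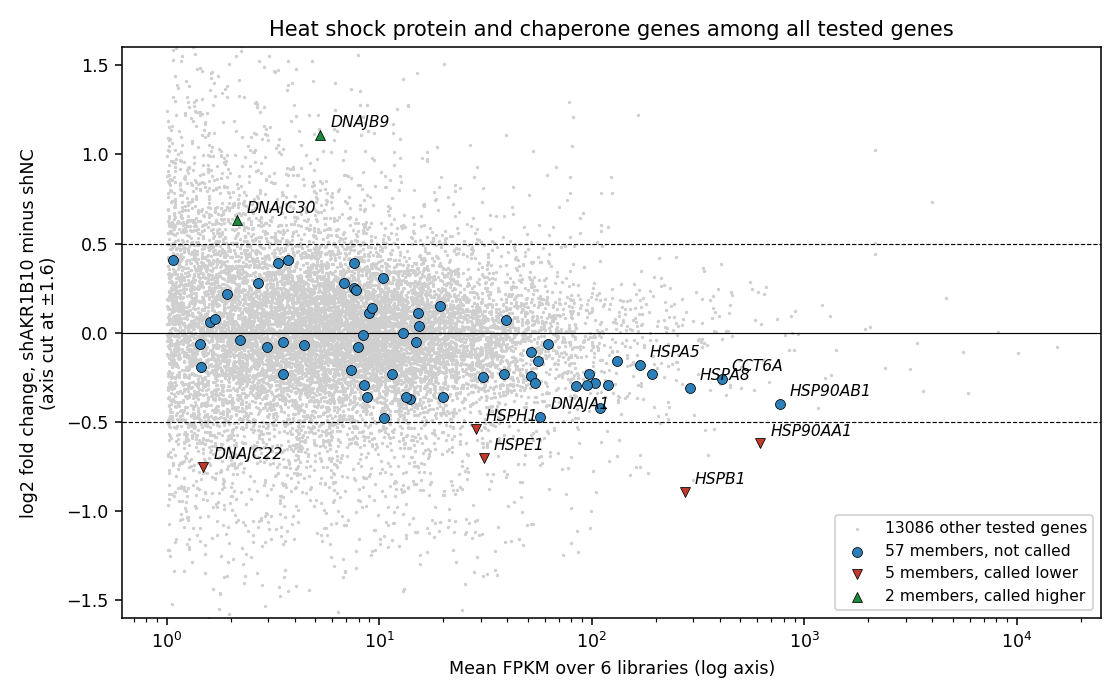
Log2 fold change (BrM3-shAKR1B10 minus BrM3-shNC) against mean FPKM over 6 libraries on a log axis, with 64 tested members in colour over the other tested genes in grey and dashed lines at ±0.5. Every one of the 20 members with a mean of 50 FPKM or more lies below 0, and the members above 0.5, DNAJB9 and DNAJC30, are expressed below 10 FPKM.

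The share of lower members went with the level of expression. Of the 20 members with a mean of at least 50 FPKM, all 20 had a negative fold change and 18 passed the adjusted p (90.0%), beside 34.1% of the 780 genes tested at that level. Their median log2 fold change was -0.28, and that of the 780 genes was -0.04. Between 10 and 50 FPKM, 9 of 16 members passed as lower (56.2%, beside 31.4% of the 3781 genes at that level) and 1 as higher (6.25%, beside 21.6%). The higher count depended on scaling: it was 3 (18.8%) in TPM and 4 (25.0%) with quantile normalization or with voom on recovered reads. It was 2 (12.5%) with protein-coding genes only or without BrM3-shAKR1B10 replicate 3. Among the 28 members between 1 and 10 FPKM, 4 passed as lower (14.3%, beside 18.5% of the 8589 genes at that level) and 9 as higher (32.1%, beside 18.2%). Without BrM3-shAKR1B10 replicate 3 these low-level members gave 2 as lower (7.14%, beside 15.3% of genes at that level) and 5 as higher (17.9%, beside 14.1%).

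The cytosolic HSP90 genes were the most abundant members, and all 3 HSP90 genes fell. HSP90AA1 (ENSG00000080824, chr14:102080738-102139699), the stress-inducible cytosolic form, stood at 477, 510.1 and 482 FPKM in knockdown libraries and at 799, 729 and 735 FPKM in controls. The lowest control library was well above the highest knockdown library, and the log2 fold change was -0.62 ± 0.0491 (SE, limma adjusted p = 1.7e-04), or 64.9% of the control mean. HSP90AB1, the constitutive cytosolic form, was measured at 650.1, 684 and 664 FPKM against 909.5, 845 and 876 FPKM. It fell as well, by 0.40 on the log2 scale (limma adjusted p = 5.1e-04), without reaching the threshold of 0.5. HSP90B1, the HSP90 of the ER lumen, was lower too (log2 fold change -0.29, limma adjusted p = 0.00108).

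HSP90AA1 stood at 0.733, 0.745 and 0.726 of the HSP90AB1 level in knockdown libraries and at 0.878, 0.862 and 0.840 of it in controls. These FPKM ratios did not overlap between the groups (0.735 ± 0.00984 against 0.860 ± 0.0193, SD, n = 3; exact permutation p = 0.1, the smallest possible). Every knockdown library thus held less of the inducible form per unit of the constitutive form than any control library.

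HSPB1 (ENSG00000106211, chr7:76302544-76304295), the small heat shock protein also known as HSP27, had the most negative fold change of all tested members. It was measured at 193, 182 and 204 FPKM in knockdown libraries and at 345, 350.5 and 378 FPKM in controls. All control libraries were above all knockdown libraries, and the log2 fold change was -0.89 ± 0.0548 (SE, limma adjusted p = 6.4e-05), leaving 53.8% of the control mean. HSPB1 was by far the most abundant small heat shock gene. HSPB11, an intraflagellar transport protein despite its symbol, lay between 13.8 and 17.2 FPKM with overlapping groups (log2 fold change 0.04, limma adjusted p = 0.717), and HSPB8, a partner of BAG3 in autophagy, lay between 1.47 and 2.43 FPKM (0.22, limma adjusted p = 0.319). The other 5 small heat shock members, HSPB2, HSPB3, HSPB6, HSPB7 and HSPB9, did not exceed 0.362 FPKM in any library.

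The mitochondrial chaperonin pair fell unequally. HSPE1 (ENSG00000115541, chr2:197499994-197503457), the HSP10 lid, was at 22.9, 24.7 and 23.6 FPKM in knockdown libraries and at 41.5, 33.2 and 41.2 FPKM in controls. The control libraries were spread more widely and all lay above the knockdown libraries (log2 fold change -0.70 ± 0.0891, SE, limma adjusted p = 0.00123). HSPD1, the HSP60 barrel, was at 171, 183 and 176 FPKM against 222, 203 and 199.9 FPKM. Its decrease was smaller, at a log2 fold change of -0.23 (limma adjusted p = 0.00960). The ratio of HSPE1 to HSPD1 was 0.133, 0.135 and 0.134 in knockdown libraries and 0.187, 0.163 and 0.206 in controls (exact permutation p = 0.1, the smallest possible).

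These genes lie head to head on chromosome 2. RefSeq places the HSPE1 start 105 and 539 bases from the HSPD1 starts, and the heat shock element printed above for HSPD1 lies between the farther HSPD1 start and the HSPE1 start. In GENCODE 29, 281 exonic bases are shared by the pair on opposite strands, and 23.9% of the 1977 exonic bases of HSPE1 are shared with HSPD1 or with the readthrough gene HSPE1-MOB4. Whether counting used the strand is not given in the sources used here, so the level of HSPE1 relative to HSPD1 is uncertain, and the part of this overlap in the ratio was not tested.

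**Figure D2:**
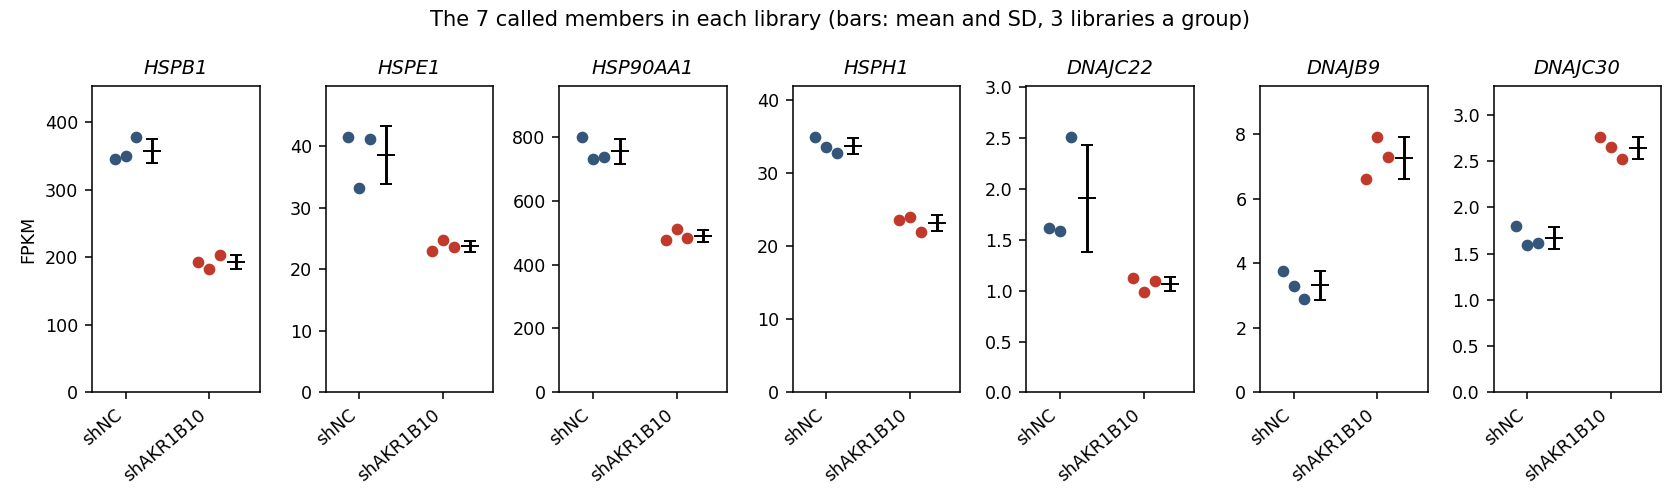
FPKM in each library (points; blue BrM3-shNC, red BrM3-shAKR1B10) with the group mean and SD for the 7 called members, each on its own axis from 0. HSPB1, HSPE1, HSP90AA1, HSPH1 and DNAJC22 are lower and DNAJB9 and DNAJC30 higher in all BrM3-shAKR1B10 libraries, and DNAJC22 has 1 control library at 2.51 FPKM apart from the others.

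None of the 10 tested HSP70 genes was called, beside 7.45% of all tested genes called lower and 5.83% called higher, and their directions were mixed. HSPA8, the constitutive cytosolic HSP70, was at 257, 269 and 254 FPKM in knockdown libraries and at 338, 315 and 315 FPKM in controls. It was lower in every knockdown library (log2 fold change -0.31, limma adjusted p = 0.00149). The stress-inducible genes HSPA1A and HSPA1B are near-identical copies, so reads may have been split between them, and their summed level is the safer value. That sum was 131, 130.0 and 141 FPKM against 154, 169 and 167 FPKM, and the individual log2 fold changes were -0.29 and -0.28 (limma adjusted p = 0.0102 and 0.00562). The ratio of HSPA1A plus HSPA1B to HSPA8 was 0.511, 0.484 and 0.554 against 0.458, 0.538 and 0.531, with overlapping groups (exact permutation p = 0.900).

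In the organelles, HSPA5 (also called BiP), the HSP70 of the ER, was modestly lower, at 154, 161 and 156 FPKM against 183, 173 and 179 FPKM (log2 fold change -0.18, limma adjusted p = 0.00622). HSPA9, the mitochondrial HSP70, was at 59.3, 63.0 and 61.0 FPKM against 65.6, 62.6 and 63.5 FPKM, with overlapping groups and a log2 fold change of -0.06 (limma adjusted p = 0.190). Some less abundant HSP70 genes were higher. HSPA2, known from germ cells, was at 9.55, 7.33 and 9.03 FPKM against 6.26, 6.63 and 6.66 FPKM (0.39, limma adjusted p = 0.0187), and HSPA13, an HSP70 of microsomes, had a log2 fold change of 0.24 (limma adjusted p = 0.0155). HSPA2 did not pass without BrM3-shAKR1B10 replicate 1 or 3 or BrM3-shNC replicate 1 (limma adjusted p up to 0.0622), nor HSPA13 without BrM3-shAKR1B10 replicate 2 or 3 (up to 0.0533). The HSPA14 identifiers overlap on the same strand and diverged: ENSG00000187522 had a log2 fold change of -0.01 (limma adjusted p = 0.881) and ENSG00000284024 one of 0.39 (limma adjusted p = 0.0116), with 460 exonic bases in common. HSPA12A, a distant relative, did not pass (-0.06, limma adjusted p = 0.711).

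Of the HSP110 exchange factors, HSPH1 (ENSG00000120694, chr13:31134974-31162388) fell. It was at 23.6, 24.0 and 22.0 FPKM in knockdown libraries and at 35.0, 33.6 and 32.8 FPKM in controls (log2 fold change -0.54 ± 0.0454, SE, limma adjusted p = 2.2e-04). The groups did not overlap, and the fold change sat just past the threshold of 0.5 and came to -0.48 with quantile normalization and -0.49 with voom on recovered reads, where it was no longer called. HSPA4 was at 48.8, 51.6 and 48.8 FPKM against 55.9, 50.8 and 55.1 FPKM, with overlapping groups (-0.11, limma adjusted p = 0.0910). HSPA4L, below the level for testing, was at 0.716 to 0.772 FPKM against 0.905 to 1.04 FPKM. Of the proteins binding heat shock proteins that the symbol rule also took in, the HSP70 exchange factor HSPBP1 was lower (-0.30, limma adjusted p = 0.0139), and HSPBAP1 did not pass (-0.19, limma adjusted p = 0.268).

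J-proteins, which bring clients to HSP70, showed both directions. DNAJA1, a main cytosolic partner of HSPA8, was at 46.2, 49.6 and 48.5 FPKM in knockdown libraries and at 70.2, 65.2 and 64.7 FPKM in controls. The gap between the groups was large against the spread (log2 fold change -0.47 ± 0.0456, SE, limma adjusted p = 4.0e-04), just inside the threshold. DNAJA2 was lower (log2 fold change -0.25, limma adjusted p = 0.00324), and the mitochondrial DNAJA3 did not pass (0.00, limma adjusted p = 0.946). DNAJB1, the inducible cytosolic J-protein, was at 49.5, 46.7 and 47.1 FPKM against 53.7, 58.2 and 57.0 FPKM (-0.24, limma adjusted p = 0.00492).

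DNAJB9 (ENSG00000128590, chr7:108569568-108574850), a J-protein of the ER that represses the stress sensor IRE1, showed the strongest rise among tested members. It was at 6.60, 7.91 and 7.29 FPKM in knockdown libraries and at 3.76, 3.31 and 2.88 FPKM in controls, from 149 to 405 reads a library. Every knockdown library was above every control library, and the log2 fold change was 1.11 ± 0.110 (SE, limma adjusted p = 4.3e-04), or 219% of the control mean. Its exons share 183 of 2837 bases with genes on the opposite strand. Other DNAJB genes with a higher level were DNAJB14, a membrane J-protein of the ER (4.40, 4.27 and 4.17 FPKM against 3.19, 3.23 and 3.13 FPKM, log2 fold change 0.41, limma adjusted p = 0.00107), and DNAJB2, a neuronal J-protein (0.31, limma adjusted p = 0.00245). DNAJB12, an ER membrane J-protein and the most abundant of the class after DNAJB1, was at 16.4, 15.5 and 16.0 FPKM against 15.1, 14.4 and 14.8 FPKM and did not pass (0.11, limma adjusted p = 0.0578). It did pass as higher in TPM, with quantile normalization and with voom on recovered reads.

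In the DNAJC class, 24 genes were tested, of which 8 passed as lower (33.3%, beside 23.1% of all tested genes), 4 as higher (16.7%, beside 19.4%) and 12 in neither direction. The 4 higher genes became 1, DNAJC30, without BrM3-shNC replicate 3, and 2 without BrM3-shAKR1B10 replicate 2 or BrM3-shNC replicate 2. With voom on recovered reads they became 8 (33.3%, beside 26.9% of all tested genes in that fit), with DNAJC4, DNAJC5, DNAJC19 and DNAJC27 gained. DNAJC30 (ENSG00000176410, chr7:73680969-73683453), a mitochondrial J-protein, was at 2.76, 2.65 and 2.52 FPKM in knockdown libraries and at 1.80, 1.59 and 1.61 FPKM in controls. It rose with no overlap (log2 fold change 0.63 ± 0.0874, SE, limma adjusted p = 0.00167) on 67 to 121 reads a library, and 359 of its 2485 exonic bases are shared with BUD23 on the opposite strand. With a pseudocount of 1 in place of 0.1 it came to 0.45 and was not called. DNAJC22 (ENSG00000178401, chr12:49346917-49357546), a membrane J-protein, was at 1.12, 0.987 and 1.09 FPKM against 1.62, 1.59 and 2.51 FPKM. Its call as lower (-0.75 ± 0.195, SE, limma adjusted p = 0.0211) was lost without BrM3-shAKR1B10 replicate 2 (limma adjusted p = 0.0610) or without BrM3-shAKR1B10 replicate 3 (limma adjusted p = 0.0516).

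Just inside the threshold was DNAJC9, a histone chaperone, at 8.07, 8.73 and 9.42 FPKM against 12.9, 11.5 and 12.3 FPKM. It was lower in all knockdown libraries (-0.48 ± 0.0699, SE, limma adjusted p = 0.00217), and 29.1% of its exonic bases are shared with other genes. DNAJC27 was among the 5 largest positive fold changes but did not pass, at 1.22, 1.31 and 1.16 FPKM against 0.988, 0.789 and 0.935 FPKM (0.41, limma adjusted p = 0.0881). The abundant DNAJC5, a chaperone of synaptic vesicles, was at 40.2, 40.6 and 40.4 FPKM against 38.8, 38.6 and 38.2 FPKM and did not pass (0.07, limma adjusted p = 0.0775). DNAJC5 did pass as higher in TPM, with quantile normalization and with voom on recovered reads, and DNAJC27 did with voom. DNAJC8, a splicing-associated member, was lower at a log2 fold change of -0.36 (limma adjusted p = 0.00191).

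All tested subunits of the cytosolic chaperonin were lower, by small amounts. CCT2, CCT3, CCT4, CCT5, CCT6A, CCT7 and CCT8 each had a log2 fold change between -0.42 and -0.16, each passed the adjusted p (0.0281 or less from limma), and none passed 0.5. Passing as lower were thus 100% of the 7, beside 23.1% of all tested genes and 34.1% of those with a mean of at least 50 FPKM. All subunits but CCT2 were at that level, where 90.0% of tested members passed as lower. No subunit overlapped between the groups, beside 29.2% of all tested genes lower without overlap. CCT5 moved most, at 90.5, 94.4 and 95.9 FPKM against 129, 124 and 123 FPKM (-0.42 ± 0.0356, SE, limma adjusted p = 2.2e-04). CCT8 had the weakest support, at 51.3, 55.7 and 51.2 FPKM against 61.0, 58.8 and 57.2 FPKM (-0.16, limma adjusted p = 0.0281), and it did not pass under 8 of 16 alternatives, among them leaving out BrM3-shAKR1B10 replicate 1 or 3 or BrM3-shNC replicate 1 or 2 (limma adjusted p up to 0.103 over all alternatives). CCT3, also at -0.16, came to -0.08 with quantile normalization and did not pass there (limma adjusted p = 0.0642). TCP1, the subunit that the symbol rule leaves out, was at 56.8, 52.9 and 55.5 FPKM against 62.6, 69.2 and 69.0 FPKM (-0.28, limma adjusted p = 0.00507).

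The 8 subunits stand in equal number in each ring, but their transcripts differed in level. CCT6A was the highest in every library, at 377, 370.1 and 369 FPKM against 444, 447 and 448 FPKM, and CCT2 the lowest, at 34.3, 36.5 and 35.9 FPKM against 43.2, 41.6 and 40.8 FPKM. The span from highest to lowest was 10.1-fold to 11.0-fold in the 6 libraries, and 3.30-fold to 3.61-fold with CCT6A left out. FPKM divides by all annotated exonic bases of a gene, so these spans also depend on the annotation. CCT6B, a testis form, lay between 0.138 and 0.332 FPKM, and CCT8L2 was listed at 0 throughout.

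**Figure D3:**
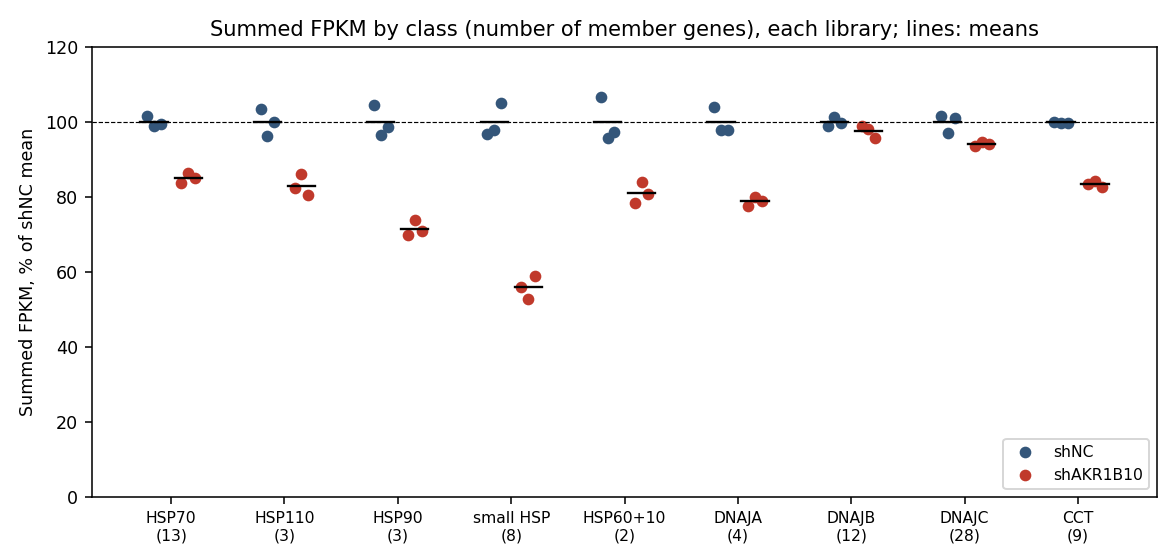
Summed FPKM of each class in each library as a percentage of the BrM3-shNC mean, with the number of member genes under each class and lines at group means. Small heat shock proteins (56.2% of the control mean, with HSPB1 holding most of the sum) and HSP90 (71.7%) are lowest, and the groups overlap in the DNAJB class alone (97.5%).

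Summed by class, the HSP90 genes held 1263 ± 37.6 FPKM in knockdown libraries and 1763 ± 73.3 FPKM in control libraries (SD, n = 3). The small heat shock proteins held 211 ± 11.5 against 376 ± 16.7 FPKM, the CCT genes 861 ± 7.70 against 1029.7 ± 1.40 FPKM, and the HSP70 genes 643 ± 10.4 against 756 ± 10.8 FPKM. The small heat shock sum was mainly HSPB1 (193 against 358 FPKM), and the median log2 fold change of the 3 tested genes of that class was 0.04. HSP110 (83.1% of the control mean), HSP60 with HSP10 (81.3%) and DNAJA (78.9%) were lower to a like extent, whereas DNAJC stood at 94.3%. In 8 of the 9 classes the groups did not overlap, with an exact permutation p = 0.1 each, the smallest possible, and p = 0.1125 after Benjamini-Hochberg adjustment over 9 classes. The DNAJB class gave 123 ± 2.38 against 127 ± 1.66 FPKM (exact permutation p = 0.200).

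The 7 members of the ER lumen did not move as a block. HSP90B1, HSPA5 and DNAJB11, a cofactor of HSPA5, passed as lower, with DNAJB11 at 12.3, 12.8 and 11.6 FPKM against 15.9, 15.7 and 15.8 FPKM (-0.37, limma adjusted p = 8.5e-04). DNAJB9, HSPA13 and DNAJC3, an inhibitor of the kinase PERK, passed as higher, with DNAJC3 at 7.95, 7.09 and 7.35 FPKM against 6.73, 6.01 and 5.73 FPKM (0.28, limma adjusted p = 0.0233). Each direction held 42.9% of the 7, beside 23.1% of all tested genes lower and 19.4% higher, and without BrM3-shAKR1B10 replicate 3 only DNAJB9 passed as higher. DNAJC3 did not pass without BrM3-shAKR1B10 replicate 1 or 3 or BrM3-shNC replicate 2 or 3 (limma adjusted p up to 0.0732). DNAJC10, an ER disulfide reductase, did not pass (-0.07, limma adjusted p = 0.337). The lower genes were the abundant ones: the 7 genes summed to 304 ± 7.60 FPKM against 347 ± 9.22 FPKM (SD, n = 3).

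Of 22 tested related genes of ER folding and the unfolded protein response, 4 passed as lower (18.2%, beside 23.1% of all tested genes) and 6 as higher (27.3%, beside 19.4%), shares near the background, with a median log2 fold change of 0.02. In TPM and with quantile normalization CANX and PDIA4 did not pass, and 2 were lower (9.09%, beside 19.5% and 20.9% of all tested genes in those fits). Called higher were XBP1, the factor spliced by IRE1, at 57.1, 58.2 and 57.2 FPKM against 38.1, 38.7 and 37.5 FPKM (0.59 ± 0.0284, SE, limma adjusted p = 2.7e-05), and HERPUD1, a factor of ER-associated degradation, at 16.2, 15.9 and 14.8 FPKM against 11.0, 9.65 and 10.1 FPKM (0.60 ± 0.0609, SE, limma adjusted p = 4.7e-04). Calreticulin (CALR), a lectin chaperone, was lower at a log2 fold change of -0.46 (limma adjusted p = 1.5e-04). ATF4, the factor downstream of PERK, was slightly higher (0.14, limma adjusted p = 0.00957), and its target DDIT3 did not pass (-0.13, limma adjusted p = 0.577).

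Of the 8 mitochondrial members, HSPD1, HSPE1 and DNAJC11, a cristae-organizing protein (-0.29, limma adjusted p = 0.00349), passed as lower (37.5%, beside 23.1% of all tested genes) and DNAJC30 as higher (12.5%, beside 19.4%). HSPA9, DNAJA3, DNAJC15 and DNAJC19 did not pass. Without BrM3-shAKR1B10 replicate 1, or with voom on recovered reads, DNAJC19 passed as well and 2 members were higher (25.0%). The mitochondrial HSP90 relative TRAP1, which the symbol rule leaves out, was at 20.5, 20.0 and 21.6 FPKM against 23.2, 25.4 and 25.8 FPKM (-0.26, limma adjusted p = 0.00785).

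Of 19 tested genes known to be driven by HSF1 (12 of them members), 18 passed as lower (94.7%, beside 23.1% of all tested genes), with a median log2 fold change of -0.44 against -0.01 over all tested genes. On that list 8 genes were called lower (42.1%, beside 7.45%), 4 of them members. The exception was DNAJB4, at 8.77, 10.2 and 8.79 FPKM against 8.70, 8.75 and 8.23 FPKM (0.11, limma adjusted p = 0.245). This list was chosen with earlier results of these data known. Its 14 members summed to 2889 FPKM in controls, against 1910.0 FPKM for the 73 other members, so it holds much of the abundant transcript. At a mean of at least 50 FPKM, 90.0% of all tested members passed as lower, and the part of level was not tested. Among the 52 tested members outside that list, 20 passed as lower (38.5%, beside 23.1% of all tested genes) and 10 as higher (19.2%, beside 19.4%), with a median of -0.07. HSF1 itself was not lower: it was at 32.4, 30.8 and 33.9 FPKM in knockdown libraries and at 28.0, 28.9 and 29.1 FPKM in controls (0.17, limma adjusted p = 0.0182), and it did not pass without BrM3-shAKR1B10 replicate 1 or 3 (limma adjusted p up to 0.0560). HSF4, a related factor, was higher as well (0.43, limma adjusted p = 0.00185), and HSF2 did not pass (-0.08, limma adjusted p = 0.399).

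**Figure D4:**
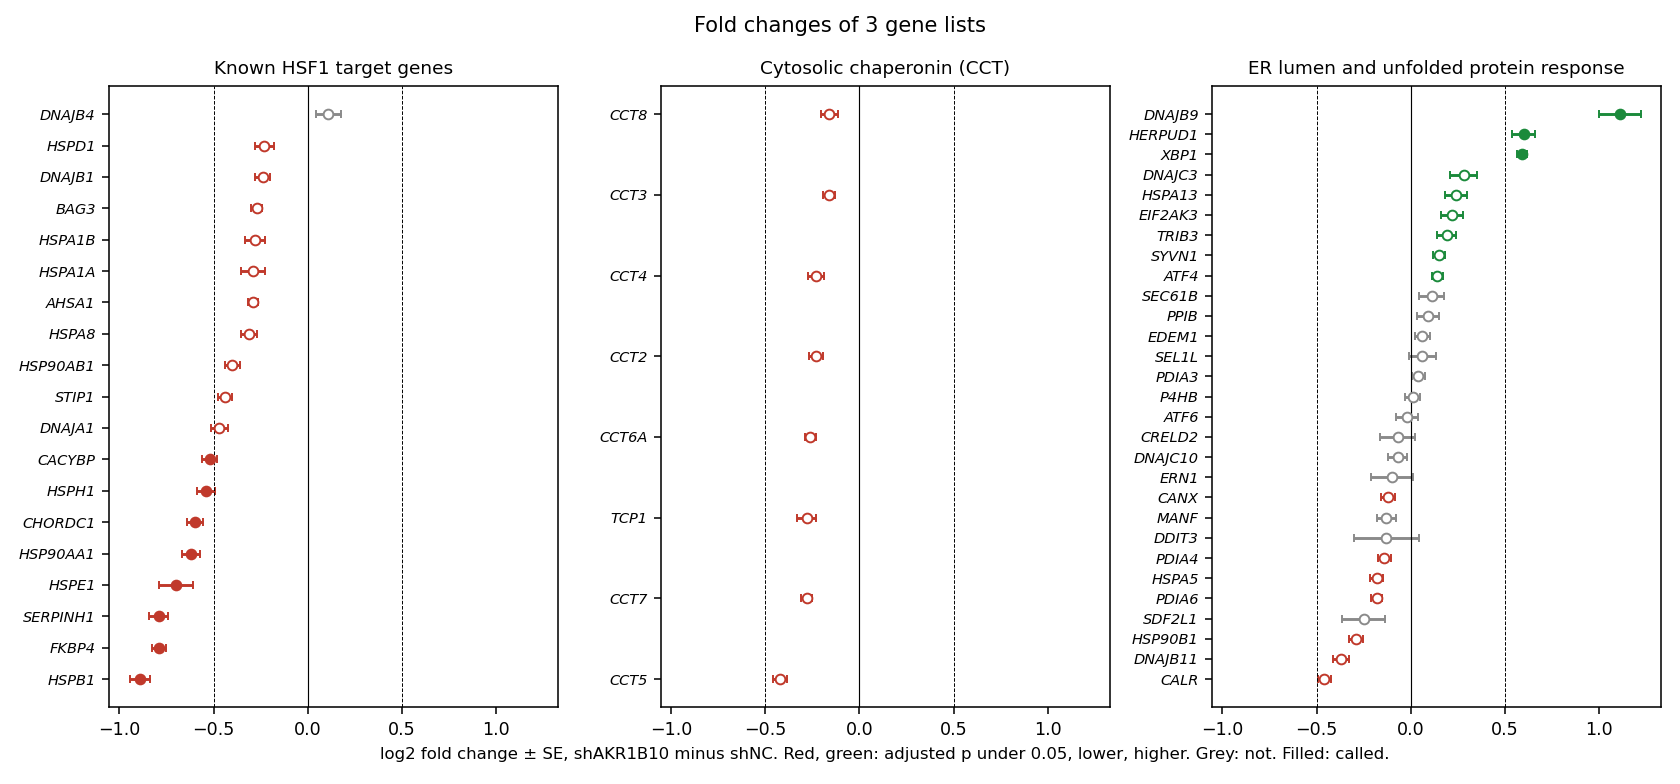
Log2 fold change with its SE for the tested genes of 3 lists; red and green mark an adjusted p under 0.05 in the lower and higher direction, grey neither, and filled points are called. The HSF1 target list has 18 of 19 genes in red, all 8 chaperonin subunits are red and uncalled, and the ER list spans from CALR at -0.46 to DNAJB9 at 1.11.

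Of 25 tested partners and relatives of HSP90, 14 passed as lower (56.0%, beside 23.1% of all tested genes) and none as higher (beside 19.4%), and 11 passed in neither direction. Of these genes 5 were called lower (20%, beside 7.45%). FKBP5, the immunophilin of steroid receptor complexes, was at 1.79, 1.80 and 1.75 FPKM in knockdown libraries and at 3.76, 3.79 and 3.83 FPKM in controls (-1.05 ± 0.0612, SE, limma adjusted p = 5.5e-05), and its relative FKBP4 was at 28.0, 29.7 and 30.1 FPKM against 50.2, 50.5 and 51.5 FPKM (-0.79, limma adjusted p = 2.6e-05). CHORDC1 (-0.60), the cyclophilin PPID (-0.58) and CACYBP (-0.52), each a binder of HSP90 or its cochaperones, were the others called, and CACYBP was not called without BrM3-shNC replicate 2 (-0.50). STIP1, the adaptor that joins HSP70 to HSP90, was at 83.5, 82.1 and 82.0 FPKM against 107, 114 and 115 FPKM (-0.44, limma adjusted p = 1.9e-04), just inside the threshold. CDC37, the kinase adaptor, did not pass (-0.07, limma adjusted p = 0.0658).

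Among 14 tested exchange factors and partners of HSP70, 6 passed as lower (42.9%, beside 23.1% of all tested genes) and none as higher (beside 19.4%). With any 1 library left out 5 were lower, and BAG5 (limma adjusted p = 0.0493) did not pass under 12 of 16 alternatives. BAG4 passed as higher in TPM, with protein-coding genes only and without BrM3-shNC replicate 1, and GRPEL1 with quantile normalization. With voom on recovered reads BAG1 and BAG4 did (14.3%, beside 26.9% of all tested genes in that fit). BAG2, which inhibits the ubiquitin ligase STUB1, was called, at 2.48, 2.32 and 2.54 FPKM against 4.50, 4.20 and 3.90 FPKM (-0.75, limma adjusted p = 4.4e-04), and BAG3 passed at -0.27 (limma adjusted p = 6.0e-04). SERPINH1, the collagen chaperone of the ER also known as HSP47, was at 23.2, 22.6 and 24.6 FPKM against 38.3, 41.9 and 41.7 FPKM (-0.79, limma adjusted p = 7.4e-05). Of 15 tested chaperonin partners and prefoldin genes, TCP1 included, 7 passed as lower (46.7%, beside 23.1%) and 1 as higher (6.67%, beside 19.4%). Without BrM3-shAKR1B10 replicate 1 or replicate 3, or with the replicate block, MKKS, PFDN1 and URI1 did not pass and the count was 4 lower (26.7%) and 0 higher. Over all 86 tested related genes, 7 were called lower (8.14%, beside 7.45% of all tested genes) and 2 higher (2.33%, beside 5.83%), shares near or under the background. At the adjusted p alone 33 of them passed as lower (38.4%, beside 23.1%) and 10 as higher (11.6%, beside 19.4%), the latter 6 without BrM3-shAKR1B10 replicate 3. With voom on recovered reads 17 passed as higher (19.8%, beside 26.9% of all tested genes in that fit).

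The promoter elements were set beside these values. RefSeq windows were matched for 76 of the 86 symbols, and motifs were searched on both strands in the 250 bases before each start. The 3-unit heat shock element occurred in 6 members (DNAJB6, HSP90AA1, HSP90AB1, HSPA6, HSPA8 and HSPD1) and in 0.557% of the 27305 genes with a window. Of the 5 tested, 4 passed as lower (80%, beside 46.2% of the 52 tested and matched members without it and 23.1% of all tested genes), and DNAJB6 did not pass (15.1, 14.3 and 14.5 FPKM against 15.4, 15.1 and 14.9 FPKM). The 4 lower genes had means above 50 FPKM, a level at which 18 of 20 members passed as lower (90.0%). DNAJB6 had a mean of 14.9 FPKM, and the part of level in this difference was not tested. HSPA6, an HSP70 known for strict dependence on heat, did not exceed 0.150 FPKM.

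The 2-unit GAANNTTC, which is contained in the 3-unit element, occurred in 17 members and in 7.05% of genes. Of the 12 tested members with it, 10 passed as lower (83.3%, beside 23.1% of all tested genes) and none as higher. Of the 45 tested and matched members without it, 18 passed as lower (40%, also above 23.1%) and 9 as higher (20%, beside 19.4%). All of the 10 lower members with GAANNTTC except CCT2 (38.7 FPKM) had a mean above 50 FPKM, and the part of level was not tested. The other order of the pair, TTCNNGAA, which the 3-unit element contains as well, occurred in 12 members and in 8.12% of genes. Of the 7 tested members with it, 4 passed as lower (57.1%), near the 48.0% of the 50 members without it. These counts describe letters in short windows: HSPE1 and HSPH1 have no match, and nothing about binding was measured. The ER stress element was found in HSPA5 and HSP90B1, both lower, and in 0.0916% of genes. DNAJB9 and DNAJB11 hold none in their windows.

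The 23 members under 1 FPKM were not tested. Their means did not exceed 0.861 FPKM, 9 of them held no more than 3 reads in any library, and 4 (CCT8L2, DNAJC5B, HSPB2-C11orf52 and HSPB3) were listed at 0 in all 6. For a gene of 1000 bases, 3 reads equal 0.163 to 0.177 FPKM. A further 10 held more than 3 reads in every library, and the groups did not overlap for DNAJA4, HSPA12B and HSPA4L (lower) and for DNAJB13 and DNAJC28 (higher), which went untested because of the limit on level. Without overlap were thus 3 of these 10 in the lower and 2 in the higher direction, beside 13.5% and 19.0% of the 3964 untested genes with more than 3 reads in every library. The readthrough genes DNAJC25-GNG10, HSPB2-C11orf52 and HSPE1-MOB4 share 99.2% to 100% of their exonic bases with their parent genes.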

How the data were processed

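The authors purified poly-A RNA, aligned reads with HISAT2 2.0.5, counted them per gene with featureCounts 1.5.0-p3 (versions from the submitters' processing notes) and deposited 1 table of FPKM values for 58735 genes. Strand use and the treatment of shared reads are not given in the sources used here. All 87 member identifiers and exonic lengths matched GENCODE 29 (GRCh38).

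Log2(FPKM + 0.1) was fitted with limma 3.58.1 (R 4.3.3, eBayes with a trend) over the 13150 genes whose mean reached 1 FPKM, with Benjamini-Hochberg adjustment over all of them, so fold changes understate low genes. Called means adjusted p under 0.05 and a log2 fold change beyond 0.5. Ratios and class sums were compared by exact two-sided permutation tests (scipy 1.17.1). Whole reads were recovered for 100.0% of values (tolerance 0.05 read) for depth and the voom alternative; floors of 3 reads cover counting error only. Fits were tested on simulated data.

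Members, gene lists and rules were chosen with earlier results of these data known. Named were all called members, the 5 largest fold changes in each direction, all tested HSP70, HSP110, HSP90, HSP60 with HSP10 and CCT genes, HSPB1, DNAJA1 and DNAJB1, the 2 most abundant genes of each class, called related genes, HSF1, TCP1, STIP1, BAG3 and AKR1B10; other genes named were chosen after their values were seen. No library was left out.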

Additional observations from a re-analysis of the deposited data

How the results depend on the processing

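Members called lower (5) ranged from 4 to 6 and members called higher (2) from 2 to 3 when each library was left out. DNAJC22 was lost without BrM3-shAKR1B10 replicate 2 or 3, DNAJC9 was gained without BrM3-shAKR1B10 replicate 3 or BrM3-shNC replicate 2, and HSPA2 was gained, at a log2 fold change of 0.50, without BrM3-shAKR1B10 replicate 2. With pseudocount 1 or a mean FPKM of at least 5, 1 member was called higher, since DNAJC30 was lost to shrinkage or to the filter, and DNAJC22 came to -0.48 with pseudocount 1. Requiring a log2 change beyond 1 left 1 member higher (DNAJB9) and 0 lower, with 0 related genes higher and 1 lower, while no threshold gave 10 and 31 members and 10 and 33 related genes. CACYBP came to -0.49 in TPM, -0.48 with quantile normalization, -0.48 with voom and -0.50 without BrM3-shNC replicate 2, where it was not called. Across the alternatives that refit all genes, 28 to 31 members passed the adjusted p as lower and 6 to 15 as higher, the latter with voom on recovered reads. Of the 41 members that passed, 9 (CCT3, CCT8, DNAJC2, DNAJC3, DNAJC16, DNAJC22, DNAJC25, HSPA2 and HSPA13) did not under at least 1 alternative, with limma adjusted p up to 0.115 (DNAJC2).

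Rescaling to TPM moved the median of all genes from -0.01 to 0.02 and the log2 ratio of summed class levels to -0.1954 for HSP70, -0.0001 for DNAJB, -0.0471 for DNAJC and -0.2215 for CCT, a constant shift by construction. HSPA14 (ENSG00000187522), near 0 throughout, changed sign in TPM (0.0283), with quantile normalization (0.0125) and with voom (0.0405), and ranged from -0.0252 to 0.0061 with a library left out. HSPB11 ranged from -0.0255 to 0.1325. AKR1B10 kept its call and direction in every alternative run.

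Replicate numbers did not pair the libraries: same-numbered deviations correlated at -0.0155, 0.00388 and 0.00383. With the replicate block, 5 members were called lower and 2 higher, and 7 related genes lower and 2 higher, the same genes as without it, while among members DNAJC2, DNAJC16 and DNAJC25 no longer passed the adjusted p. Levels under 1 FPKM and strand-shared exons are limited by depth and counting.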
